A study of Mus musculus with 6 samples.

Results

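The genes that give the ductal cells of the pancreas and their tumours an epithelial identity were examined in 6 subcutaneous tumours of Panc02, a mouse pancreatic ductal cancer cell line. The members are 32 genes chosen by name: keratins, junction proteins, surface and secreted proteins, transcription factors, splicing regulators, a membrane protease with its inhibitors, a trafficking protein and integrins. All 32 are among the 17352 genes of the deposited table. In 3 tumours, numbered 3, 4 and 5 in the labels, the host mice lacked Anxa1, which encodes the phospholipid-binding protein annexin A1, in myeloid cells such as macrophages (Anxa1 ΔMɸ), and these tumours are called deficient. In the other 3, numbered 2, 3 and 5, the hosts were Anxa1 flox/flox without the deletion, and these tumours are called wild type as in the labels. Tumours of both groups grew from the same cell line and were collected 4 weeks after implantation. The deletion was in the host and not in the implanted Panc02 cells. The Cre driver, host age and host sex were not stated in the labels. The letters HFD, undefined there, stand in all 6 labels.

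Simple epithelia are held together by cadherin and claudin junctions and are stiffened by filaments of paired type I and type II keratins. Their gene programme is kept by transcription factors of the Grainyhead and Ets families and by the splicing factors Esrp1 and Esrp2. It is lost in part when carcinoma cells take on mesenchymal features, where repressors of the Zeb and Snail families bind E-box sequences, CAGGTG or its complement, in the promoters of epithelial genes. The label of these samples names pancreatic cancer cells, but the RNA came from whole tumours, which also hold immune, stromal and skin-associated cells. In such bulk samples a change in the number of cells of a type and a change in RNA per cell cannot be told apart.

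Promoters are shown for the junction genes with the widest separation of the groups and, as a contrast, for the most abundant keratin pair. RefSeq promoter sequences (GRCm38.p6, 250 bases before to 50 bases after the start) were matched by symbol for 18 of the 32 members. Each promoter is given 5′ to 3′ on the strand of its gene, with matches to the 4 motifs searched in capitals: CAGGTG or CACCTG (the E-box), ACCGGT (a Grainyhead core), GGAAGT or ACTTCC (an Ets-type core) and ATTGTT or AACAAT (a Sox core). Epcam lies at chr17:87635729-87636028 on the plus strand, Cldn3 at chr5:134985964-134986263 on the plus strand and Cldn4 at chr5:134946885-134947184 on the minus strand. Krt8 lies at chr15:102004293-102004592 on the minus strand and Krt18 at chr15:102027966-102028265 on the plus strand.
Epcam: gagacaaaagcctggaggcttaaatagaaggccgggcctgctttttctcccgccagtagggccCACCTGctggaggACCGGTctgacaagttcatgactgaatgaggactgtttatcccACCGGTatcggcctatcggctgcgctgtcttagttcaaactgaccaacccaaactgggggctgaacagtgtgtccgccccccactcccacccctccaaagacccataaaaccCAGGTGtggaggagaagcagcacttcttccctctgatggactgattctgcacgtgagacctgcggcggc
Cldn3: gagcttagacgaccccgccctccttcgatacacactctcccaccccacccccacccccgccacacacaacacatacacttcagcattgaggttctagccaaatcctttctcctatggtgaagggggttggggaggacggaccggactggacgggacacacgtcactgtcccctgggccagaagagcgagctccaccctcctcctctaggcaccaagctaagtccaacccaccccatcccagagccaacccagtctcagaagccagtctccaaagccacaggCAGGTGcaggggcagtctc
Cldn4: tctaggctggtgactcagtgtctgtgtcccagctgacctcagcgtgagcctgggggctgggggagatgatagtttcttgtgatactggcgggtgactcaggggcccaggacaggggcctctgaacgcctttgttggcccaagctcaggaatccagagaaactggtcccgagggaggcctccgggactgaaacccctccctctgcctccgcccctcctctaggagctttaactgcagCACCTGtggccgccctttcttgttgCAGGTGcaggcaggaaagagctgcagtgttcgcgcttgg
Krt8: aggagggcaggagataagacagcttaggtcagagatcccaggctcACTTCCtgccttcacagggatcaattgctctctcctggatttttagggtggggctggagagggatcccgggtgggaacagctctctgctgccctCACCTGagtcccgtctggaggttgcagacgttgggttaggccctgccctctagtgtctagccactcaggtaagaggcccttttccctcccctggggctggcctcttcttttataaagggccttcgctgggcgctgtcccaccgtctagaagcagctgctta
Krt18: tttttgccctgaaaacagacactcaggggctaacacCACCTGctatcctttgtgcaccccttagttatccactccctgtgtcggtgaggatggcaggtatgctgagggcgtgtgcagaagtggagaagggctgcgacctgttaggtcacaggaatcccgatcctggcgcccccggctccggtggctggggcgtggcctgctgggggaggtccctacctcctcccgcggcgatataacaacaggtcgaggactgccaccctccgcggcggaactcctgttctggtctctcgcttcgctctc

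The E-box was found in at least 1 promoter of 15 of the 18 members (83.3%), against 22.6% of the 27025 genes in the promoter table and 19.7% of the 9781 tested genes that have a promoter there. Epcam holds E-boxes that begin 187 and 19 bases upstream of the start, and ACCGGT beginning 174 and 131 bases upstream. Cldn4 holds an E-box beginning 14 bases upstream and another at base 12 of the transcript, and the match in Cldn3 begins at base 32 of the transcript. The Grainyhead core was found in 2 of 18 members (11.1%, against 2.68% of all genes and 3.93% of tested genes), Epcam and Spint1. The Ets-type core was found in 6 (33.3%, against 26.5% of all and 32.8% of tested genes) and the Sox core in 0 (0.0%, against 12.2% of all and 6.85% of tested genes), which says only that those letters were not in these windows. E-boxes stood in promoters of abundant members (Krt8, Krt18, Krt7, Spint2) and of members near 0 in wild-type tumours (Cldn3, Cldn4, Rab25). In the order of protein-coding genes in the RefSeq annotation, Krt8 and Krt18 are direct neighbours on chromosome 15, Cldn3 and Cldn4 on chromosome 5, and Tff1 and Tff2 on chromosome 17.

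Epithelial genes were present at very different levels in these tumours. Levels are in FPKM, fragments scaled for transcript length and for sequencing depth, so that genes can be compared. Over the 6 tumours, Krt8 and Krt18 had a mean above 100 FPKM, another 8 members had means between 10 and 100, 7 between 1 and 10, and 15 of the 32 had a mean under 1. Those under 1 included the splicing factors, Grhl2, Rab25, St14 and the junction genes Cldn4, Cldn7, Tjp3 and Marveld2. In wild-type tumours 12 members had a mean under 0.5 FPKM.

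Differences between the groups were tested with limma on log2(FPKM + 1) across the 12257 genes with a mean of at least 0.5 FPKM, and a call is a Benjamini-Hochberg adjusted p under 0.05 over all of them. A fold change on this scale is deficient over wild type and understates the change of low genes. Of the 32 members, 25 were tested. Among these, 1 rose (Cldn3), where 0.979% of all tested genes were called higher, and 0 fell by limma, where 0.228% were called lower. At an unadjusted p under 0.05, 6 members were higher and 1 was lower, 7 of 25 in all, against 15.1% of all tested genes. The median log2 fold change was 0.17 over the 25 members and 0.02 over all tested genes. A log2 fold change above 0 was found for 17 of the 25, against 54.7% of tested genes. Epcam, Cldn3, Cldn4, Muc1 and St14 reached the minimum level only through the deficient tumours. All these counts and the median therefore describe the members and do not support a shift of the list.

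Counted over all 32 members without any filter, all 3 deficient tumours lay above all 3 wild-type tumours for 11 members (34.4%), against 10.8% of the 17352 genes. They lay below them for 2 members (6.25%), against 7.03% of genes. Among the 25 tested members these were 8 higher and 2 lower, against 11.8% and 8.31% of tested genes. The 8 include Epcam, Cldn3, Cldn4, Muc1 and St14, which reached the tested level only through the deficient tumours. The filter thus raised this count, which does not support a shift of the list. Among the 7 untested members 3 were higher and 0 lower, against 8.5% and 3.95% of untested genes. Of the 20 members with a mean under 5 FPKM, 9 were higher without overlap, against 10.3% of genes at that level. Of the 12 members at 5 FPKM or more, 2 were, against 11.4% of genes at that level. Deficient 5 held the highest value of 9 members (28.1%, against 21.65% of tested genes), and deficient 3 held the highest of 8 (25.0%, against 21.26%). Deficient 5 also held the lowest value of 7 members, fewer than wild type 2 with 9. The share of lowest values over all genes was not counted.

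Depth was similar in the 6 libraries, at an implied 37500000 to 41100000 fragments each, read from the steps between low values. Anxa1 averaged 290.2 ± 40.2 FPKM in deficient and 363.5 ± 27.3 FPKM in wild-type tumours (SD, n = 3 each), a log2 fold change of -0.33 (limma adjusted p = 0.268). Y-linked transcripts separated the same libraries as the genotype: the 4 genes Ddx3y, Eif2s3y, Kdm5d and Uty summed to 0.00291 to 0.239 FPKM in deficient and 5.21 to 10.6 FPKM in wild-type tumours. Genotype and this difference coincide in all 6 tumours and cannot be told apart in any result given here.

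Junction genes showed the widest separation, and Cldn3 was the 1 member called. Claudins are the sealing proteins of tight junctions. Cldn3 had 1.23, 1.48 and 3.38 FPKM in deficient 3, 4 and 5, against 0.1002, 0.0814 and 0.0814 FPKM in wild type 2, 3 and 5. These are 58, 77 and 161 fragments against 5, 4 and 4. The groups did not overlap, and the deficient mean was 23.2 times the wild-type mean. On the log2 scale this was a change of 1.41 (SE 0.24), with a limma adjusted p of 0.0445. The call is close to the threshold: it was lost with no filter on low values (adjusted p = 0.135), with quantile normalization (0.0704) and without deficient 3 (0.0929) or wild type 2, 3 or 5 (0.0792, 0.198 and 0.122), while the fold change stayed between 1.11 and 1.601 when any 1 library was left out.

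Its neighbour Cldn4, another claudin, was listed at 0 in all 3 wild-type tumours. Its FPKM was 0.795, 0.255 and 2.81 in deficient 3, 4 and 5, from 54, 19 and 192 fragments. A count of 0 allows up to 3 fragments, or 0.0426 FPKM, per wild-type library, so the deficient mean was at least 30.3-fold higher than that limit, and at least 12.3-fold without deficient 5. Its log2 fold change of 1.03 (SE 0.36) did not pass (limma adjusted p = 0.236), and the 3 deficient tumours differed widely among themselves. Deficient 5 was the highest for both claudins.

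Epcam, a homophilic adhesion molecule of epithelia, had 1.19, 3.21 and 5.47 FPKM in deficient 3, 4 and 5, against 0.0983, 0.312 and 0.324 FPKM in wild type 2, 3 and 5. In fragments these are 92, 272 and 425 against 8, 25 and 26. The groups did not overlap and the mean was 13.5 times higher in deficient tumours. The log2 fold change of 1.66 (SE 0.35) had a limma adjusted p of 0.0808, and it passed with a pseudocount of 0.1 (adjusted p = 0.0484) and without deficient 3 (0.0386).

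Cdh1, the E-cadherin of adherens junctions, was expressed in every tumour. It had 12.1, 6.69 and 6.35 FPKM in deficient 3, 4 and 5, against 5.46, 3.79 and 5.64 FPKM in wild type 2, 3 and 5. Deficient 3 stood well above the rest, and the other deficient tumours lay just above the wild-type range. For Cdh1 the log2 fold change of 0.61 (SE 0.24, limma adjusted p = 0.288) was 0.35 without deficient 3. Cldn7 did not overlap either, at 1.12 ± 0.1996 FPKM in deficient and 0.705 ± 0.270 FPKM in wild-type tumours (SD, n = 3 each; log2 fold change 0.32, limma adjusted p = 0.369). The scaffold protein Tjp3 and the tricellular junction protein Marveld2 overlapped between the groups, with log2 fold changes of 0.14 and -0.01.

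**Figure D1:**
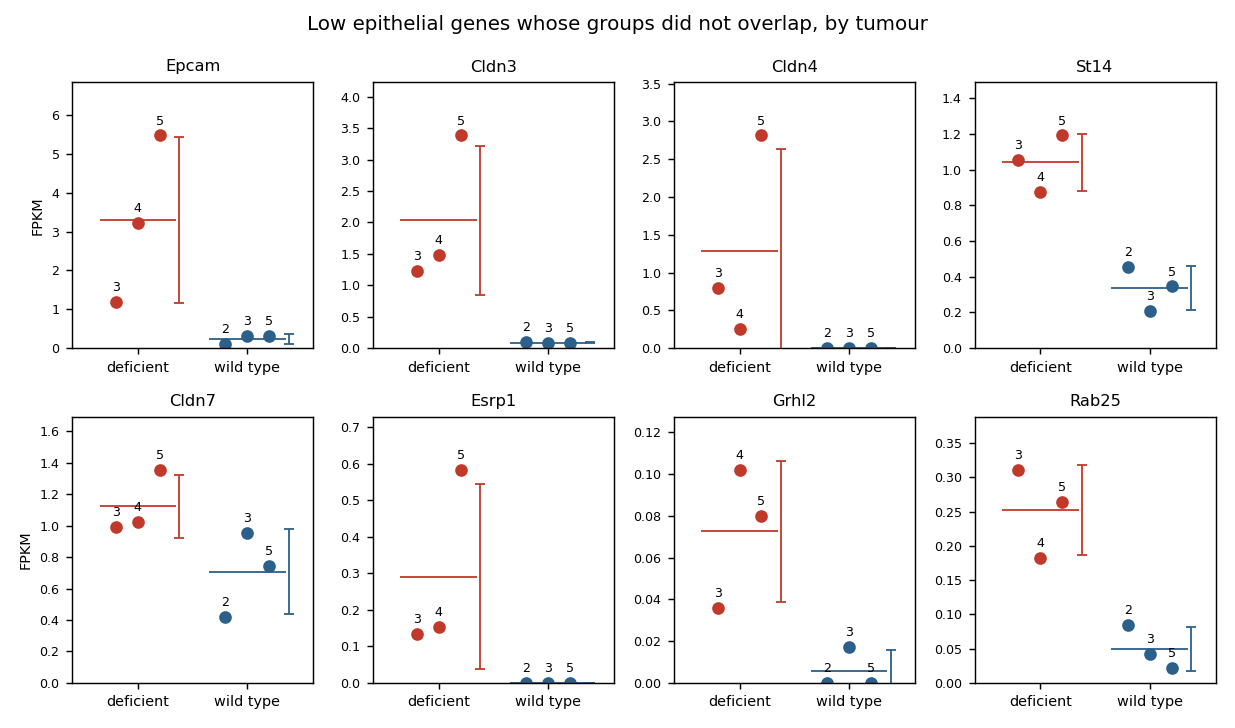
FPKM (y axis, from 0) of 8 low epithelial genes, picked because their groups do not overlap, in the 3 deficient and the 3 wild-type tumours (points, with the label number), with the group mean (line) and SD (bar, drawn down to 0 at most). All 3 deficient tumours lie above all 3 wild-type tumours in each panel, Cldn4 and Esrp1 are at 0 in wild type, and deficient 5 is highest for Epcam, Cldn3, Cldn4, St14, Cldn7 and Esrp1. Of the 20 members with a mean under 5 FPKM, 11 do not show this pattern.

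Among the 7 members below the level tested, Esrp1, Grhl2 and Rab25 were higher without overlap (against 8.5% of untested genes) and the other 4 overlapped. These 3 are singled out after their values were seen. With no filter on low values all 32 members were tested by limma and 0 were called. Esrp1, which directs epithelial splicing, had 20, 25 and 87 fragments in deficient 3, 4 and 5 (0.135, 0.154 and 0.583 FPKM), against 0 in each wild-type tumour. The deficient mean was at least 14.9-fold higher than the limit of 3 fragments per wild-type library (0.0195 FPKM), and at least 7.41-fold without deficient 5. Cldn4 and Esrp1 are the 2 members above 0 in all deficient and at 0 in all wild-type libraries, a pattern seen in 0.461% of the 17352 genes. Grhl2, the Grainyhead factor of epithelia, had 8, 25 and 18 fragments in deficient 3, 4 and 5, against 0, 4 and 0 in wild type 2, 3 and 5. Rab25, a small GTPase of epithelial recycling endosomes, had 14, 9 and 12 fragments in deficient 3, 4 and 5, against 4, 2 and 1 in wild type 2, 3 and 5. Esrp2, the paralogue of Esrp1, overlapped, at 0.358 ± 0.110 FPKM in deficient and 0.320 ± 0.0843 FPKM in wild-type tumours (SD, n = 3 each).

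Of the 3 genes of the matriptase system 0 passed by limma, and 2 (St14 and Spint2) had an unadjusted p under 0.05, against 15.1% of all tested genes. St14 reached the tested level only through the deficient tumours, so this count is a description only. St14, the membrane serine protease matriptase, had 1.06, 0.875 and 1.19 FPKM in deficient 3, 4 and 5, against 0.455, 0.208 and 0.346 FPKM in wild type 2, 3 and 5. The groups did not overlap, and the log2 fold change of 0.61 (SE 0.13) had a limma adjusted p of 0.0747. Spint2, a Kunitz-type inhibitor of such proteases, had 21.4, 17.3 and 19.3 FPKM in deficient 3, 4 and 5, against 15.4, 12.6 and 13.6 FPKM in wild type 2, 3 and 5. The groups again did not overlap, and the log2 fold change of 0.45 (SE 0.11, limma adjusted p = 0.121) stayed between 0.38 and 0.53 when any 1 library was left out. The related inhibitor Spint1 overlapped: it had 8.02, 6.75 and 11.5 FPKM in deficient 3, 4 and 5, against 8.11, 5.81 and 5.06 FPKM in wild type 2, 3 and 5 (log2 fold change 0.40, limma adjusted p = 0.421). Protease and inhibitors differ in level, with both inhibitors far above St14 in every tumour.

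All 5 keratins overlapped between the groups, among them Krt8 and Krt18, the most abundant of the 32 members. Krt8 had 266.4, 258.5 and 197.7 FPKM in deficient 3, 4 and 5, against 259.0, 219.3 and 205.6 FPKM in wild type 2, 3 and 5. Its filament partner Krt18 had 251.0, 242.5 and 202.1 FPKM in deficient 3, 4 and 5, against 219.0, 243.7 and 205.3 FPKM in wild type 2, 3 and 5. The log2 fold change was 0.07 for Krt8 (95% interval -0.26 to 0.40, limma adjusted p = 0.858) and 0.06 for Krt18 (-0.21 to 0.32, limma adjusted p = 0.869), and both signs turned with quantile normalization and without deficient 3, that of Krt18 also without wild type 5. The ratio of Krt8 to Krt18 in FPKM lay between 0.978 and 1.07 in deficient tumours and between 0.900 and 1.18 in wild-type tumours. The partners stood at similar levels in each tumour.

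The ductal keratins varied more between single tumours than the Krt8 and Krt18 pair. Krt19 had 40.2, 37.5 and 36.9 FPKM in deficient 3, 4 and 5, against 44.9, 12.0 and 10.7 FPKM in wild type 2, 3 and 5. Wild type 2 was the highest of all 6 tumours, while wild type 3 and 5 lay far below every deficient tumour. The log2 fold change of 1.04 (SE 0.46) did not pass (limma adjusted p = 0.351), and without wild type 2 it was 1.67 and passed (adjusted p = 0.00288). Krt7 had 39.0, 25.2 and 11.7 FPKM in deficient 3, 4 and 5, against 23.2, 25.7 and 25.2 FPKM in wild type 2, 3 and 5. Deficient tumours held both the highest and the lowest Krt7, and its log2 fold change of -0.12 was 0.33 without deficient 5. Krt20, a keratin of gut epithelium, was under the level tested, at 0.178 to 0.450 FPKM in deficient and 0.251 to 0.689 FPKM in wild-type tumours.

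**Figure D2:**
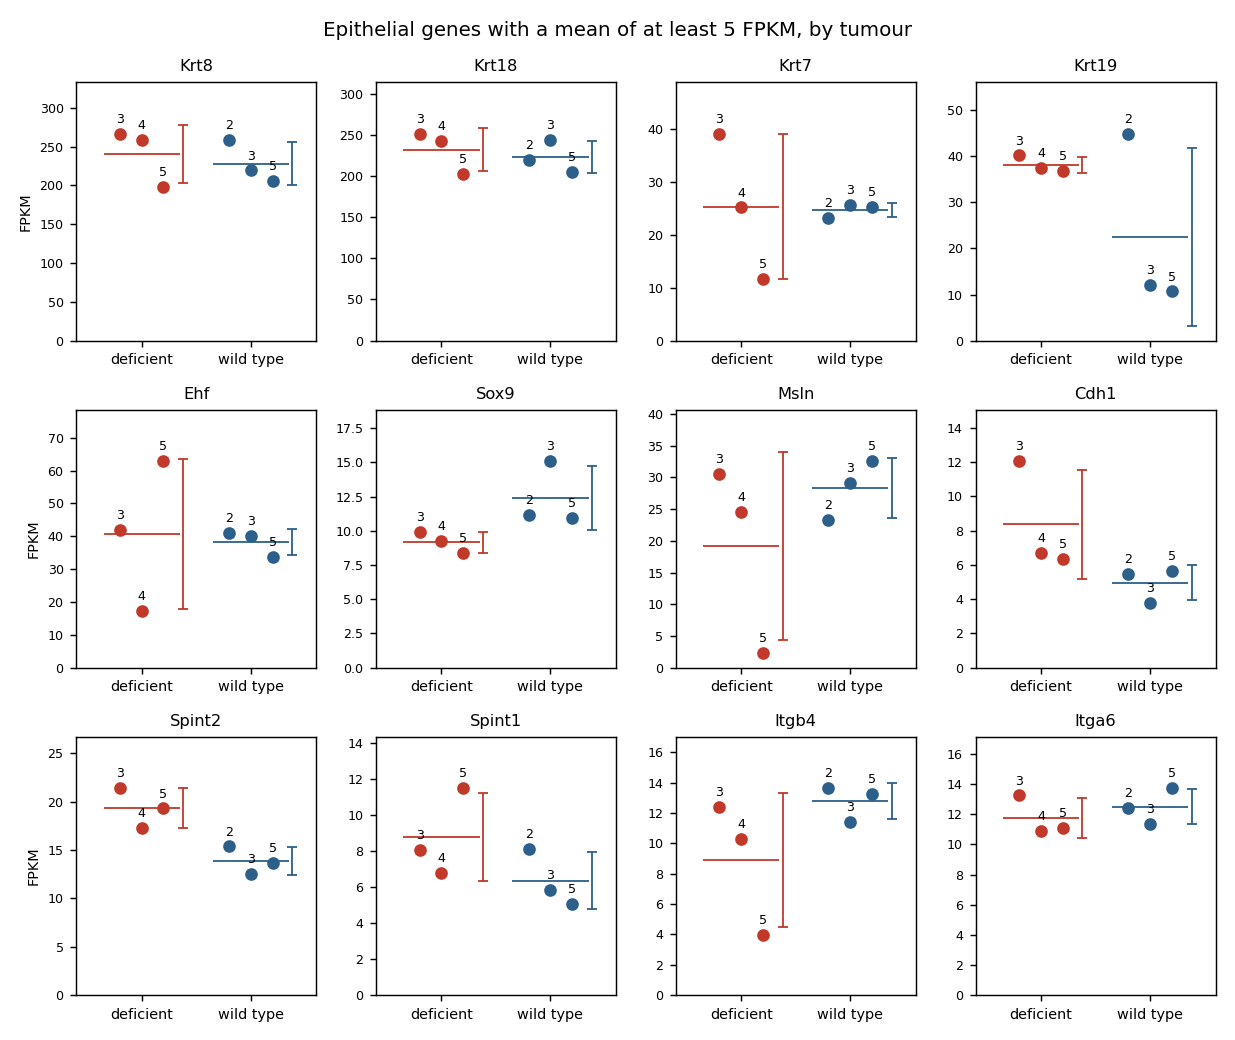
FPKM (y axes, from 0) of the 12 epithelial genes with a mean of at least 5 FPKM, in the 3 deficient and the 3 wild-type tumours (points, with the label number), with group mean (line) and SD (bar). Cdh1 and Spint2 are higher and Sox9 is lower in all deficient tumours, Krt19 is high in wild type 2, and deficient 5 is lowest for Krt7, Msln and Itgb4.

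Surface and secreted proteins did not move together. Msln, a glycoprotein of mesothelium and of many pancreatic cancers, had 30.6, 24.5 and 2.36 FPKM in deficient 3, 4 and 5, against 23.2, 29.1 and 32.6 FPKM in wild type 2, 3 and 5. Deficient 5 alone was low, and the log2 fold change of -1.06 (SE 0.75, limma adjusted p = 0.549) was -0.03 without it. The mucin Muc1 was higher in all deficient tumours, at 0.669 ± 0.0706 FPKM, than in wild-type tumours, at 0.444 ± 0.0983 FPKM (SD, n = 3 each; log2 fold change 0.21, limma adjusted p = 0.436). The intestinal galectin Lgals4 was lower in all deficient tumours, at 0.717 ± 0.0692 FPKM, than in wild-type tumours, at 0.978 ± 0.122 FPKM (SD, n = 3 each; log2 fold change -0.20, limma adjusted p = 0.436). Tff1, a trefoil peptide of mucous epithelium, overlapped at 0.669 to 1.88 FPKM in deficient and 0.697 to 1.66 FPKM in wild-type tumours. Ceacam1, an adhesion molecule also found on endothelium and leukocytes, overlapped at 0.810 to 1.399 FPKM in deficient and 0.513 to 0.820 FPKM in wild-type tumours. Tff2 was listed above 0 in deficient 5 (0.0465 FPKM) and wild type 2 (0.355 FPKM), and Prom1 (CD133) stayed under 0.15 FPKM in every tumour.

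Among the transcription factors, Sox9, which marks pancreatic ducts and progenitors, was lower in every deficient tumour. It had 9.92, 9.23 and 8.39 FPKM in deficient 3, 4 and 5, against 11.2, 15.1 and 10.95 FPKM in wild type 2, 3 and 5. The log2 fold change of -0.39 (SE 0.13) did not pass (limma adjusted p = 0.241). The Ets factor Ehf had 42.0, 17.3 and 62.9 FPKM in deficient 3, 4 and 5, against 41.1, 40.2 and 33.8 FPKM in wild type 2, 3 and 5. Deficient tumours again held both extremes, and the log2 fold change of -0.09 was 0.42 without deficient 4. Elf3, a related Ets factor, averaged 1.35 ± 0.363 FPKM in deficient and 1.18 ± 0.697 FPKM in wild-type tumours, and Onecut2, a factor of liver and pancreas development, averaged 2.64 ± 0.554 FPKM in deficient and 2.09 ± 0.489 FPKM in wild-type tumours (SD, n = 3 each). Both overlapped between the groups.

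The integrin pair that anchors epithelia to laminin was not called in either chain. Itgb4, the chain specific to hemidesmosomes, had 12.4, 10.3 and 3.95 FPKM in deficient 3, 4 and 5, against 13.6, 11.4 and 13.3 FPKM in wild type 2, 3 and 5. Deficient 5 was again the low tumour, and the log2 fold change of -0.60 (SE 0.33, limma adjusted p = 0.454) was -0.16 without it. Its partner Itga6, which also pairs with another beta chain on endothelium and other cells, had 13.3, 10.9 and 11.1 FPKM in deficient 3, 4 and 5, against 12.4, 11.4 and 13.7 FPKM in wild type 2, 3 and 5 (log2 fold change -0.09, 95% interval -0.34 to 0.17, limma adjusted p = 0.768). In deficient 5, Krt7, Msln and Itgb4 were thus at their lowest, while Epcam, Cldn3, Cldn4 and Esrp1 were at their highest.

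**Figure D3:**
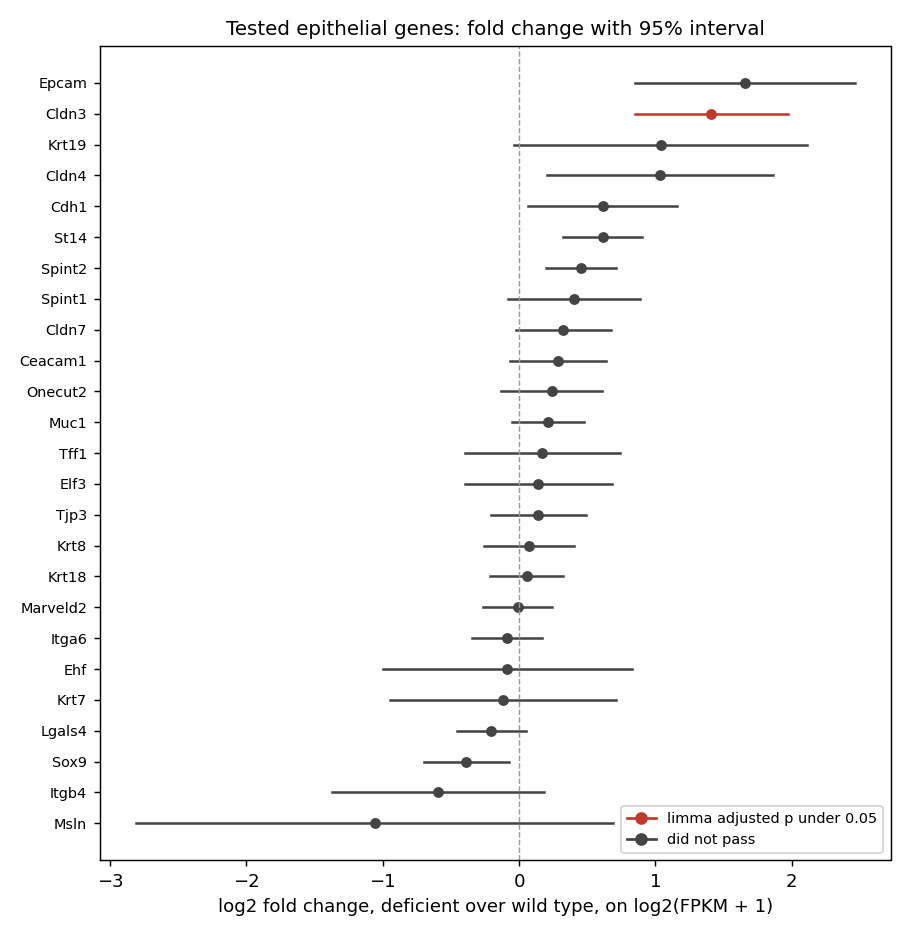
Log2 fold change (x axis, deficient over wild type, on log2(FPKM + 1)) of the 25 tested epithelial genes, with 95% intervals from limma. Cldn3 at 1.41 is the 1 gene past the adjusted threshold, Epcam has the highest estimate at 1.66, and the intervals of Krt8, Krt18 and Itga6 span 0.

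A wider list held 39 further epithelial genes. Of its 22 tested genes 0 passed by limma, and 3 had an unadjusted p under 0.05, against 15.1% of all tested genes. The median log2 fold change was -0.01. Its groups did not overlap for 4 of 39 genes higher (10.3%) and 2 lower (5.13%), close to the 10.8% and 7.03% of all genes. The most abundant were Sdc1, a heparan sulphate proteoglycan (log2 fold change -0.28), the catenins Ctnnb1 (-0.04) and Ctnna1 (0.01), which link cadherins to actin, and the tetraspanin Tspan8 (0.08). The signs of both catenins turned in other settings. Genes singled out after their values were seen include the pancreatic factor Pdx1, at 26.1 ± 2.56 FPKM in deficient and 25.2 ± 4.40 FPKM in wild-type tumours (SD, n = 3 each). Klf5, a factor of epithelial progenitors, was lower in every deficient tumour (log2 fold change -0.80, limma adjusted p = 0.218), and Lsr, a tricellular junction protein, was higher in every deficient tumour (0.71, limma adjusted p = 0.0605). Desmoplakin, Dsp, had 17, 31 and 63 fragments in deficient 3, 4 and 5, against 0, 1 and 1 in wild type 2, 3 and 5. The epithelial sorting adaptor Ap1m2 had 11, 21 and 25 fragments in deficient 3, 4 and 5, against 0, 0 and 1 in wild type 2, 3 and 5.

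Vim, Fn1 and S100a4 were far above every junction gene in both groups. Cdh2, Twist2, Snai2 and Zeb1 had means below that of Cdh1 in both groups, while Snai1 and Zeb2 had means above it in both. Twist1 averaged below Cdh1 in deficient tumours (5.11 against 8.37 FPKM) and above it in wild-type tumours (9.24 against 4.96 FPKM). Of 10 tested mesenchymal genes 0 passed by limma and 0 had an unadjusted p under 0.05, with a median log2 fold change of -0.18. Vim, the mesenchymal filament protein, averaged 1525 ± 260.9 FPKM in deficient and 1609 ± 107.2 FPKM in wild-type tumours (SD, n = 3 each; log2 fold change -0.09). Fn1 (log2 fold change -0.23) and S100a4 (-0.12) were lower in every deficient tumour, 2 of 10 against 7.03% of all genes. For S100a4 the groups nearly met, at 554.3 FPKM in deficient 3 and 555.2 FPKM in wild type 2. The E-box repressor Snai1 averaged 42.4 ± 11.4 FPKM in deficient and 41.6 ± 6.23 FPKM in wild-type tumours (SD, n = 3 each), with a log2 fold change of 0.01 whose sign turned in other settings. Zeb1, Zeb2, Snai2, Twist1, Twist2 and Cdh2 were named after their values were seen. Twist1 overlapped, at 3.4 to 7.1 FPKM in deficient and 3.7 to 14.8 FPKM in wild-type tumours (log2 fold change -0.62, limma adjusted p = 0.534). Zeb1 lay at 2.14 to 2.75 FPKM in deficient and 2.74 to 3.74 FPKM in wild-type tumours, and Zeb2, which macrophages also express, at 21.9 to 24.8 FPKM in deficient and 19.3 to 27.3 FPKM in wild-type tumours.

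Some markers of mammary and basal epithelium separated the groups in the same direction as the rare junction genes. Of 6 genes listed for mammary epithelium, 3 are in the table. Of these, 2 were higher without overlap, Csn3 and Elf5 (66.7%, against 10.8% of all genes). The list was chosen with earlier results of these data known, so this share is a description only. Elf5 was under the level tested, at 0.366 to 0.716 FPKM in deficient and 0.110 to 0.347 FPKM in wild-type tumours. Csn3, the milk protein kappa-casein, had 0.724, 1.97 and 2.91 FPKM in deficient 3, 4 and 5, and was listed at 0 in all wild-type tumours. It reached the tested level only through the deficient tumours. Its log2 fold change of 1.44 did not pass (limma adjusted p = 0.0595, and 0.161 with no filter on low values). The mammary list summed to 1.09 to 3.66 FPKM in deficient and 0.121 to 0.347 FPKM in wild-type tumours, and its milk protein gene Lalba was at or under 1 fragment in each library. Of the keratinocyte list 14 of 17 genes are in the table, and 0 of 4 tested genes were called by limma or had an unadjusted p under 0.05. Its sum lay at 7.11 to 12.4 FPKM in deficient and 7.68 to 11.3 FPKM in wild-type tumours, carried mostly by Trp63, a basal epithelial factor (log2 fold change -0.15, with the sign turned without deficient 4). Krt10, Krt14 and Sbsn had log2 fold changes of 0.10, 0.28 and 0.14.

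Of the 14 keratinocyte genes, Krt5 and Krt17 were higher without overlap (14.3%, against 10.8% of all genes) and the other basal keratins Krt14 and Krt15 overlapped. Krt5 and Krt17 are singled out after their values were seen. Krt5, a basal keratin of skin and glands, had 9, 45 and 50 fragments in deficient 3, 4 and 5, against 0, 2 and 4 in wild type 2, 3 and 5. Krt17 had 9, 6 and 16 fragments in deficient 3, 4 and 5, against 0, 0 and 1 in wild type 2, 3 and 5. The barrier genes Krt1, Dsg3, Lor and Krtdap were at 0 in all wild-type tumours and at most 0.0578 FPKM in any deficient tumour. Sox10, a factor of Schwann cells and of some glandular epithelium, had 15, 21 and 44 fragments in deficient 3, 4 and 5, against 1, 1 and 0 in wild type 2, 3 and 5. Prx, Mbp and Cdh19, also listed for Schwann cells, overlapped between the groups.

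The 6 adipocyte markers summed to 46.1 to 224.7 FPKM in deficient and 0.832 to 27.2 FPKM in wild-type tumours. Of these genes 0 were called by limma and 5 had an unadjusted p under 0.05, against 15.1% of all tested genes. Plin1 and Retn, which are among the 5, reached the tested level only through the deficient tumours, so this count is a description only. Cidec, Cfd and Retn were higher without overlap, 3 of 6 against 10.8% of all genes, and Adipoq, Plin1 and Lep overlapped. Deficient 5, the highest for Epcam, Cldn3, Cldn4 and Csn3, was also the highest in this sum. The order of the other deficient tumours differed, with deficient 3 above deficient 4 for the adipocyte sum and Cldn4 but below it for Epcam, Cldn3 and Csn3. Mesothelial markers summed to 0.484 to 1.06 FPKM in deficient and 0.393 to 1.10 FPKM in wild-type tumours, and 0 of 5 separated the groups. The endothelial list overlapped too, at 51.7 to 88.5 FPKM in deficient and 53.6 to 74.7 FPKM in wild-type tumours. Of 7 leukocyte genes 5 had an unadjusted p under 0.05, against 15.1% of all tested genes, and 0 were called by limma. Their sums were 191.6 to 277.6 FPKM in deficient and 175.3 to 193.1 FPKM in wild-type tumours. Ptprc was higher without overlap, 1 of 7 (14.3%, against 10.8% of all genes). Of the acinar list 3 of 5 genes are in the table, and Cela1 carried nearly all of its sum of 3.44 to 5.69 FPKM in deficient and 2.64 to 3.11 FPKM in wild-type tumours. The part of these cell types in the differences of Epcam, the claudins, Esrp1, Grhl2, Rab25 and St14 was not tested.

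**Figure D4:**
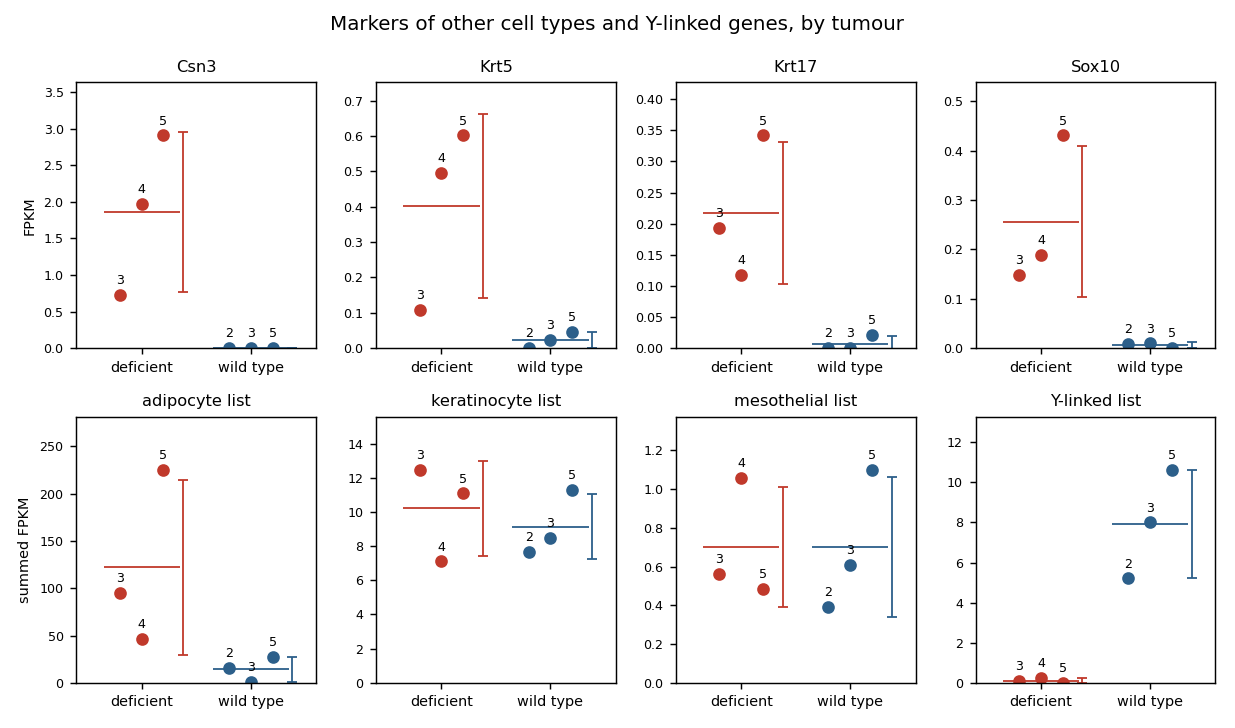
FPKM of Csn3, Krt5, Krt17 and Sox10 (upper row) and summed FPKM of the adipocyte, keratinocyte, mesothelial and Y-linked lists (lower row) in the 3 deficient and the 3 wild-type tumours (points, with the label number), with mean (line) and SD (bar, drawn down to 0 at most). The upper 4 genes and the adipocyte list are higher in all deficient tumours, the Y-linked list is lower, and the keratinocyte and mesothelial sums overlap.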

How the data were processed

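RNA of 6 whole tumours was extracted with TRIzol and sequenced as 150 bp paired-end reads, per the labels' protocols. HISAT2, HTSeq and R 3.2.0 appear, with no role stated, per the submitters' processing notes. The authors' genome build was not given in the sources used here. The authors deposited 1 table with 1 column per library. No header names the unit, which was read as FPKM from the deposited values themselves: 73.4% of genes had values in whole steps (tolerance 0.001), and the depth was then fixed from 242 genes by their GENCODE M21 exon lengths. Fragments are given for genes whose annotated exon length leaves 1 possible step, and limits on 0 (3 fragments) cover counting error only.

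The group effect on log2(FPKM + 1) was fitted by limma 3.58.1 (R 4.3.3), letting the prior variance follow the mean. Genes with a mean under 0.5 FPKM were left out of the tests. All p-values are two-sided and measure the spread between these tumours. The fit was tested on simulated data. Genes were described by a fixed rule: every member, with all 6 values for those at 5 FPKM or more, called, or among the 6 smallest p; and from other lists called genes and the 4 most abundant. Other genes are named as chosen outside this rule or as markers of another cell type. Members and lists were chosen with earlier results of these data known. Alternatives were a pseudocount of 0.1, other filters and scalings, no variance trend, a block for label number, and each library left out in turn.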

Additional observations from a re-analysis of the deposited data

How the results depend on the processing

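With 3 tumours a group, calls near the threshold moved with the settings. Members called higher numbered 2 with a pseudocount of 0.1 (Cldn3 and Epcam), 0 with no filter on low values and 0 with quantile normalization, and 0 to 1 when 1 library was left out: Cldn3 without deficient 4 or 5, Epcam without deficient 3, Krt19 without wild type 2. Over all genes, 120 were called higher and 28 lower, against 10 and 8 with no filter, 74 higher with quantile normalization, and 7 to 275 higher and 3 to 69 lower when 1 library was left out. The median log2 fold change of the members stayed above 0, from 0.13 to 0.33 in the other settings and from 0.15 to 0.23 when 1 library was left out. The label numbers 3 and 5 occur in both groups, but tumours of the same number did not deviate together (correlation of deviations -0.09 and -0.01). Tumours of different numbers gave correlations from -0.208 to 0.224. With so few shared numbers these values cannot show whether the numbers are a pairing, and the main fit used none. A replicate block called 633 genes higher and 354 lower, with 6 members higher (Cldn3, Cldn4, Epcam, Krt19, Spint2 and St14). It also called 4 wider epithelial genes and 1 mesenchymal gene (Twist1). Deficient 4 and wild type 2 share their number with no other tumour, so the block's group effect came only from the tumours numbered 3 and 5. Its calls do not describe all 6 tumours.

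Signs that turned belonged to log2 fold changes that lay between -0.15 (Trp63) and 0.17 (Tff1) in the main fit. With median-ratio scaling they were -0.0187 for Ctnna1 and -0.0194 for Snai1. With quantile normalization they were -0.0647 for Ctnna1, -0.0396 for Krt18, -0.00454 for Krt8 and -0.0464 for Snai1. With the block they were 0.0730 for Ctnnb1, 0.47 for Ehf, -0.0750 for Elf3, -0.27 for Snai1, -0.11 for Tff1 and 0.0720 for Trp63. When 1 library was left out, values ranged from -0.0659 to 0.0496 for Ctnna1, -0.0969 to 0.0552 for Ctnnb1, -0.48 to 0.42 for Ehf, -0.0612 to 0.38 for Elf3, -0.00470 to 0.15 for Krt18, -0.50 to 0.33 for Krt7, -0.00492 to 0.21 for Krt8, -0.0467 to 0.0376 for Marveld2, -0.0868 to 0.15 for Pdx1, -0.20 to 0.14 for Snai1, -0.0123 to 0.38 for Tff1 and -0.43 to 0.16 for Trp63. The cause was not tested.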
